A study of Mus musculus with 11 samples.

Results

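The ligands of the interleukin-1 (IL-1) and IL-36 family were described in the skin and the small intestine of BALB/c mice that received a cream on the skin. The members were chosen by gene name as *Il1a*, *Il1b*, *Il1rn*, *Il18*, *Il33*, *Il36a*, *Il36b*, *Il36g*, *Il36rn* and *Il1f10*, which are 10 of the 45777 genes in the expression table. The names of 6 members stood in the table as such, and the other 4 were listed under older symbols that were matched by Entrez Gene identifier: *Il1f6* for *Il36a*, *Il1f8* for *Il36b*, *Il1f9* for *Il36g* and *Il1f5* for *Il36rn*. IMQ-treated mice received 62.5 mg a day of a cream with 5% imiquimod (IMQ, Aldara), an agonist of Toll-like receptor 7, on the shaved back and right ear for 5 to 8 days, beginning at 8 to 10 weeks of age. Control mice received the same amount of Vaseline, so that the effects of IMQ and of the other constituents of Aldara cannot be told apart. RNA sequencing gave 11 libraries with 44995414 to 58526384 counts in each. Skin was represented by 3 libraries of either treatment, and small intestine by 3 from control mice and 2 from IMQ-treated mice. The labels number the libraries 1 to 11 and do not say which of them came from one mouse, so that p-values measure the spread between these samples, part of which may be technical.

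IL-1α and IL-1β activate the same receptor, and the product of *Il1rn* is the antagonist that occupies this receptor without signaling. The 3 agonists IL-36α, IL-36β and IL-36γ and their antagonist, the product of *Il36rn*, repeat this arrangement at the IL-36 receptor, and keratinocytes are a main source of them in psoriatic skin. IL-18 and IL-33 have receptors of their own, IL-1β and IL-18 are cut to their active form by caspase-1, and IL-33 is held in the nucleus of epithelial and stromal cells until it is released. *Il1f10* encodes the family member also named IL-38, which is held to be inhibitory.

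In GRCm38, the build called mm10 in the deposited table, 8 of the 10 members lie on chromosome 2. Ordered by position, *Il36b* (24153172 to 24160103), *Il36g* (24186476 to 24193567), *Il36a* (24215417 to 24225701), *Il36rn* (24276954 to 24282432), *Il1f10* (24291196 to 24294165) and *Il1rn* (24336860 to 24351491) follow each other in one cluster. *Il1a* (129299609 to 129310186) and *Il1b* (129364569 to 129371164) are neighbors farther along the same chromosome, *Il18* is on chromosome 9 (50554700 to 50581841) and *Il33* on chromosome 19 (29925113 to 29960718).

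The 250 bases before the annotated start are shown for 5 members on which the results below turn: *Il1b*, which rose in both tissues, *Il33*, whose change differed between the tissues, and 3 genes of the IL-36 cluster that are read from the same strand and were detected in skin but scarcely or not at all in small intestine. The sequences come from RefSeq annotation of GRCm38.p6 and are written from 5′ to 3′ on the strand of the gene. Capitals mark matches on either strand to 4 short motifs, which were TATAAA for the box that positions the polymerase, TGANTCA for the element bound by AP-1, GGGANNTTC for most of the element bound by NF-κB, and TTGCNNAA for that bound by C/EBP. The *Il1b* window is chr2:129371140-129371389, that of *Il33* is chr19:29945540-29945789 (the second of 2 annotated starts, on the plus strand), and those of *Il36b*, *Il36g* and *Il36rn* (the first of 2 starts) are chr2:24152922-24153171, chr2:24186226-24186475 and chr2:24276704-24276953, all on the plus strand, whereas *Il1b* is on the minus strand.
Il1b: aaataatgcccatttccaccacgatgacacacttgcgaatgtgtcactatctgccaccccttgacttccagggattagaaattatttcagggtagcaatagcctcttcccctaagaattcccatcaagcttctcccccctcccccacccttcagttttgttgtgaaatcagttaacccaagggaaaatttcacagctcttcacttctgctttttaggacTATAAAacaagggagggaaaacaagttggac
Il33: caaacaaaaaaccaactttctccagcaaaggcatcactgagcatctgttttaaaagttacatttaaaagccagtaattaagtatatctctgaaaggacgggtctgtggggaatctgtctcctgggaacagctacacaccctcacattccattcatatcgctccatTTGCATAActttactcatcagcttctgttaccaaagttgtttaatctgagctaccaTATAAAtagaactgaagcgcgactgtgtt
Il36b: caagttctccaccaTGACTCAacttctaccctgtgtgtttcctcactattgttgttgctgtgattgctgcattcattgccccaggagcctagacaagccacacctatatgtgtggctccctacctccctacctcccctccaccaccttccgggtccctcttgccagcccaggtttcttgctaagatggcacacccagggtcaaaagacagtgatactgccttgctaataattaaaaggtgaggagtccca
Il36g: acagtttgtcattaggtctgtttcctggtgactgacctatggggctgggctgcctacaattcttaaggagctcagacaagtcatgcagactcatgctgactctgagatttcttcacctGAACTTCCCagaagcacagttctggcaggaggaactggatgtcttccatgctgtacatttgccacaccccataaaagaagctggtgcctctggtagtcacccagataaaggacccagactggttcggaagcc
Il36rn: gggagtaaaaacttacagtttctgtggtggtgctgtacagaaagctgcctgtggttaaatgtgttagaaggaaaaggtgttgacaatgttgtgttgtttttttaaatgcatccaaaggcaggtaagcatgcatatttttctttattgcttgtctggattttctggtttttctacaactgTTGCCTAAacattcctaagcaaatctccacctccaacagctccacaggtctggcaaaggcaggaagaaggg

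The TATA box letters began at position -31 from the start of *Il1b*, at -32 in *Il1a* and at -29 at the second start of *Il33*. They lay farther away at the first start of *Il33* (-203) and in *Il18* (-175). No TATA box letters were present in the windows of *Il36b*, *Il36g* or *Il36rn*. The AP-1 letters were found in the windows of *Il1a*, *Il1rn* and *Il36b*, the NF-κB letters in the window of *Il36g* at -132, and the C/EBP letters at the second start of *Il33* and at the first start of *Il36rn*. The window at the second start of *Il36rn*, which is not shown, held none of the motifs. Over the 13 windows of the 9 members that had one, of which 2 windows of *Il1rn* overlap, the TATA box was in 5, AP-1 in 3, C/EBP in 2 and NF-κB in 1. Among 32851 windows of all annotated starts, the same letters were present in 12.4%, 6.75%, 9.56% and 3.23%, respectively. These matches describe letters and not binding sites.

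Levels were compared between genes as FPKM, which is scaled by transcript length. In control skin, *Il36rn* had the highest level of the family, with 60.9 ± 26.2 FPKM (SD, n = 3), followed by *Il36b* (26.0 ± 12.6), *Il36g* (25.9 ± 15.5), *Il1rn* (24.2 ± 11.9) and *Il18* (22.3 ± 10.8). *Il36a* (11.8 ± 6.86), *Il33* (8.07 ± 3.07), *Il1b* (4.54 ± 1.15), *Il1a* (4.39 ± 3.27) and *Il1f10* (2.30 ± 2.20) were lower, and every neighbor in this order overlapped the next between libraries. In the skin of IMQ-treated mice, the 4 IL-36 genes were the highest ones: *Il36rn* had 156.1 ± 68.7 FPKM, *Il36a* 101.6 ± 56.1, *Il36g* 95.3 ± 33.5 and *Il36b* 73.6 ± 36.9. By group means *Il36a* had moved from the sixth rank to the second, although its libraries overlapped those of its neighbors. It was above *Il36g* in IMQ 4 only (164.6 against 128.7 FPKM) and below it in IMQ 5 (82.9 against 95.4) and IMQ 6 (57.2 against 61.6). Summed over the 10 members, the family amounted to 205, 273.6 and 92.4 FPKM in control skin and 776.8, 573.8 and 363.1 FPKM in IMQ-treated skin.

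In small intestine the family had another composition. *Il18* led in control mice with 17.1 ± 9.80 FPKM (n = 3), ahead of *Il33* (10.2 ± 1.54), *Il1b* (3.29 ± 0.864), *Il1rn* (1.94 ± 0.528) and *Il1a* (1.43 ± 0.514), and only *Il33* and *Il1b* among these neighbors did not overlap. *Il18* accounted for 39.2% to 61.2% of the summed family FPKM in control intestine and for 11.7% to 11.8% in control skin, whereas *Il36rn* accounted for 29.3% to 34.8% in control skin. *Il36a*, *Il36b*, *Il36rn* and *Il1f10* had 0 counts in all 5 intestinal libraries, and *Il36g* had 0 in the 3 controls and 2 and 6 counts in the 2 IMQ libraries. A count of 0 allows up to 3 counts, which is 0.0513 to 0.0625 CPM (counts scaled to library size) in these libraries, and this covers counting error only.

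**Figure D1:**
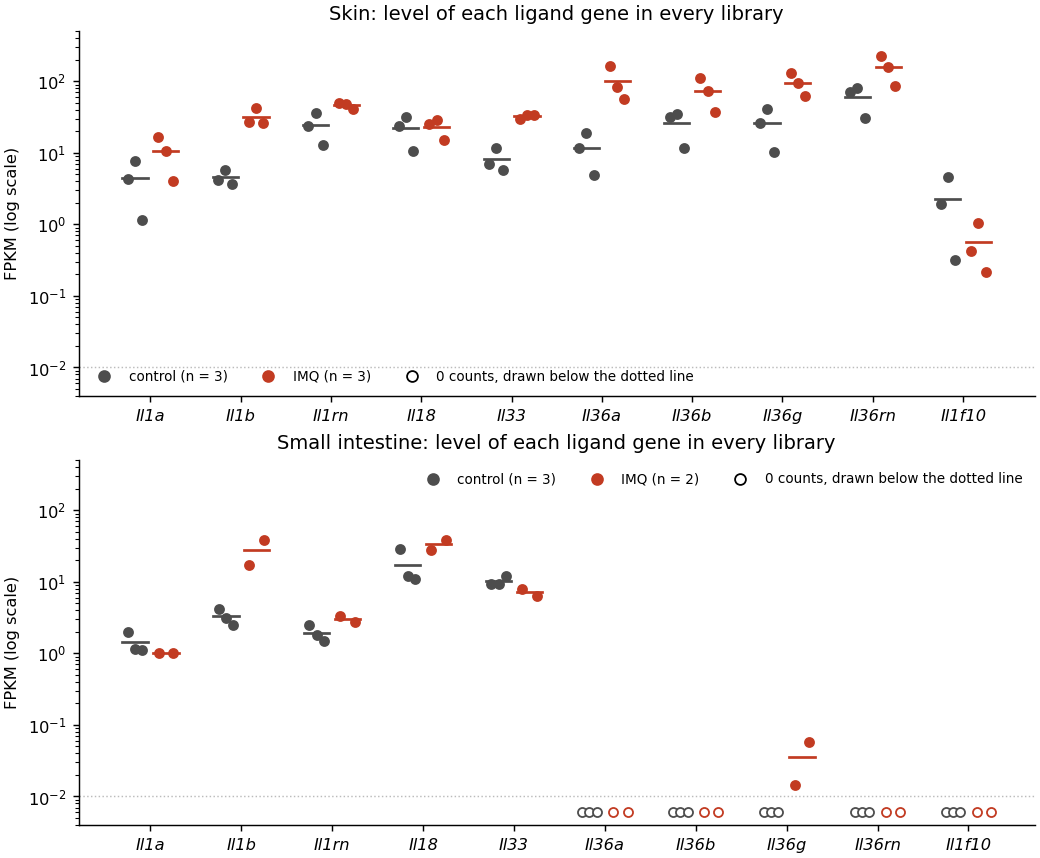
Level of each ligand gene (FPKM, log scale) in every library of skin and small intestine, with 1 point a library and a line at the mean of control (gray) and IMQ (red) libraries. In skin the 3 IMQ points of Il1b, Il1rn, Il33 and the 4 Il36 genes lie above the 3 control points, and in intestine 4 genes are at 0 counts throughout (open points).

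Between control skin and control small intestine, 57% of 18108 genes tested were called at an adjusted p under 0.05 by edgeR, 28.8% as higher in skin. The IL-1 receptor antagonist *Il1rn* was 9.32-fold higher in control skin (log2 fold change 3.22 ± 0.38 SE, edgeR adjusted p = 2.49e-05). *Il1a*, *Il1b* and *Il18* did not pass (adjusted p = 0.146, 0.925 and 0.927), with intervals of the log2 difference from -0.26 to 2.65, -0.74 to 0.84 and -1.15 to 1.02. *Il33* was called lower in skin (log2 fold change -0.77 ± 0.26, adjusted p = 0.027), although its libraries overlapped, with 5.70 to 11.5 FPKM in skin and 9.27 to 11.9 in intestine. That call was lost without skin control 1, skin control 3 or intestinal control 9 (adjusted p = 0.105, 0.0924 and 0.106), and with limma on log2(FPKM + 1) (adjusted p = 0.178). For the 5 members at 0 counts in control intestine, the mean CPM of control skin was divided by that of 3 counts in an intestinal library. This bounds the counting error in intestine and does not cover the spread between skin libraries. The skin mean of *Il36rn* was at least 1920-fold higher, that of *Il36g* at least 766-fold, *Il36b* at least 370-fold, *Il36a* at least 187-fold and *Il1f10* at least 36.6-fold. A single skin library can lie below these values, as *Il1f10* had 101, 206 and 21 counts in skin controls 1 to 3.

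In skin, IMQ treatment was tested on 20512 genes with a count in every library, all 10 members among them. *Il1b*, *Il33* and *Il36a* rose, no member fell, and the other 7 did not pass the test. Thus 3 of 10 members were called higher, beside 4.05% of all genes tested, and 6.74% were called in either direction. The members were chosen with earlier results of these data known, so that this count is a description. Since the tissue was sequenced whole, more RNA of a gene in each cell and more cells of a type that expresses it cannot be told apart here.

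*Il1b*, the secreted agonist that monocytes, macrophages and neutrophils produce in large amounts, had 4.11, 5.84 and 3.65 FPKM in control skin and 27.3, 42.2 and 26.4 FPKM in IMQ-treated skin. Each IMQ library was several times above the highest control. The fold change was 7.15 (log2 2.84 ± 0.28 SE, 95% interval 2.17 to 3.50, edgeR adjusted p = 0.00432). *Il33*, the nuclear alarmin, had 6.98, 11.5 and 5.70 FPKM in controls and 29.8, 34.1 and 33.3 FPKM under IMQ. The 3 IMQ values lay close to each other and the groups did not overlap (4.10-fold, log2 2.04 ± 0.29, adjusted p = 0.0122).

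Among the IL-36 agonists, *Il36a* was the 1 that was called, and it went from 11.7, 18.7 and 4.96 FPKM to 164.6, 82.9 and 57.2 FPKM. The lowest IMQ library was above the highest control, and the fold change was 8.91 (log2 3.16 ± 0.62, edgeR adjusted p = 0.0323). *Il36g* had 25.8, 41.3 and 10.4 FPKM in controls and 128.7, 95.4 and 61.6 FPKM under IMQ, with a log2 difference of 1.92 ± 0.54 that missed the threshold (adjusted p = 0.0846). *Il36b* had 31.4, 35.0 and 11.6 FPKM in controls and 111, 72.4 and 37.4 FPKM under IMQ (log2 difference 1.55 ± 0.54, adjusted p = 0.144). For both genes the groups did not overlap, and control 3 and IMQ 6 were the lowest libraries of their groups.

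The antagonists had differences in the same direction that did not pass the test. *Il36rn* had 71.3, 80.2 and 31.1 FPKM in controls and 223.8, 157.9 and 86.6 FPKM under IMQ (log2 difference 1.41 ± 0.48, adjusted p = 0.135). *Il1rn* had 23.5, 36.4 and 12.7 FPKM in controls and 49.0, 48.2 and 41.3 FPKM under IMQ (log2 difference 0.97 ± 0.38, adjusted p = 0.185). Neither gene overlapped between the groups. In all, every IMQ library was above every control for 7 of the 10 members (*Il1b*, *Il1rn*, *Il33* and the 4 IL-36 genes), beside 15.1% of all genes tested.

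The remaining 3 members overlapped between the groups. *Il1a*, which keratinocytes store, had 4.30, 7.71 and 1.16 FPKM in controls and 16.9, 10.51 and 4.07 FPKM under IMQ (log2 difference 1.30 ± 0.75, adjusted p = 0.356). *Il18* had 24.0, 32.2 and 10.8 FPKM in controls and 25.02, 29.2 and 15.2 FPKM under IMQ (log2 difference 0.08 ± 0.44, interval -0.97 to 1.13, adjusted p = 0.937). *Il1f10* was the one member with a lower mean under IMQ, at 1.91, 4.67 and 0.319 FPKM in controls and 0.426, 1.05 and 0.213 FPKM under IMQ (log2 difference -1.98 ± 0.90, adjusted p = 0.247).

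**Figure D2:**
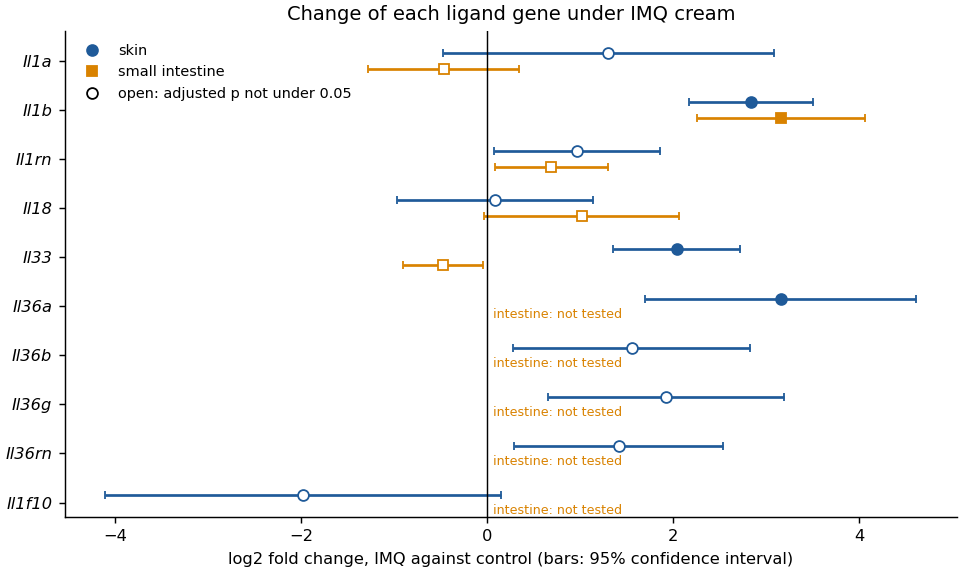
Log2 fold change of each ligand gene, IMQ against control, in skin (blue circles) and small intestine (orange squares), with 95% confidence intervals and filled symbols for an adjusted p under 0.05. Il1b is filled in both tissues, Il33 and Il36a in skin, and 5 genes have no intestinal test because their counts were 0 in at least 1 library.

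The calls in skin rested on single libraries to different degrees. *Il1b* stayed called without any 1 of the 6 libraries (adjusted p = 0.00455 to 0.0284). *Il33* lost the call without skin control 1 or IMQ 5 (adjusted p = 0.0612 and 0.0577), and *Il36a* without skin control 1, IMQ 4 or IMQ 5 (adjusted p = 0.122, 0.079 and 0.0969). The Wald test of DESeq2 called 6 members, adding *Il36b*, *Il36g* and *Il36rn* (adjusted p = 0.0206, 0.00198 and 0.0191). Over all genes it called 3030, against 1382 by edgeR, so that calls rose in general. Skin control 2 held 142.8 FPKM of 6 summed intestinal epithelium markers, against at most 3.58 in the other 5 skin libraries. Without that library edgeR called 5 members, with *Il1rn* (adjusted p = 0.0305) and *Il36g* (0.0348) in addition, and 2521 of all genes. The part of that intestinal signal in the results was otherwise not tested. Hair follicle markers, 6 genes, summed to 588.4 and 970.4 FPKM in skin controls 1 and 3 and to 1.41 in control 2, against 1.71 to 2.65 in the IMQ libraries, and of the 4 that were tested 0 were called by edgeR, 4 as lower by DESeq2 and 4 at an unadjusted p under 0.05.

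The skin library with the lowest IL-36 levels in each group also had the lowest level of differentiated keratinocyte markers (*Krt1*, *Krt10*, *Lor*, *Flg* and *Ivl*), of which 0 of 5 were called under IMQ by edgeR, 0 by DESeq2 and 0 at an unadjusted p under 0.05. Their summed level was 7221, 6827 and 2843 FPKM in controls 1 to 3 and 8322, 6841 and 3661 FPKM in IMQ 4 to 6, with control 3 and IMQ 6 at the low end. Expressed per 1000 FPKM of these markers, a scaling that was chosen after seeing the data, *Il36rn* was at 9.87, 11.7 and 10.9 in controls. Under IMQ it was at 26.9, 23.1 and 23.6. The coefficient of variation within the group thus went from 43.0% to 8.68% in controls and from 44.0% to 8.40% under IMQ, with a ratio of means of 2.26. *Il36b* was at 4.35, 5.13 and 4.08 against 13.3, 10.6 and 10.2, with a ratio of 2.52. *Il36g* was at 3.57, 6.05 and 3.66 against 15.5, 13.9 and 16.8, with a ratio of 3.48. *Il36a* was at 1.62, 2.73 and 1.74 against 19.8, 12.1 and 15.6, with a ratio of 7.80. For each of these 4 genes, the lowest IMQ library was at least 1.96 times the highest control. The same quotient was 2.55 for *Il1b*, 1.79 for *Il33* and 1.1 for *Il1rn*. It was 0.985 for *Il1a*, 0.638 for *Il18* and 0.0749 for *Il1f10*. The share of all genes that separate under this scaling was not computed.

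The same scaling left *Il18* at 3.33, 4.71 and 3.79 in controls and at 3.01, 4.27 and 4.15 under IMQ, with a ratio of 0.966. The coefficient of variation of *Il1b* went from 25.4% to 39.9% in controls and from 27.8% to 36.6% under IMQ. That of *Il33* went from 38% to 34.2% in controls and from 6.99% to 48.7% under IMQ. With the log2 marker sum as a covariate in the skin fit, an alternative that was chosen after seeing the data, 6 members were called beside 8.31% of all genes tested. These were *Il1b* (log2 2.78 ± 0.25, edgeR adjusted p = 0.00569), *Il33* (2.02 ± 0.27, 0.0154), *Il36a* (2.96 ± 0.31, 0.00823), *Il36b* (1.33 ± 0.14, 0.00942), *Il36g* (1.82 ± 0.26, 0.018) and *Il36rn* (1.21 ± 0.14, 0.0104). In that fit *Il1a* and *Il1rn* did not pass (adjusted p = 0.0897 and 0.0907), nor did *Il18* (0.964) and *Il1f10* (0.12). The fitted change for each doubling of the marker sum was 1.10 to 1.26 log2 units for the 4 IL-36 genes, 1.91 for *Il1f10*, 1.81 for *Il1a*, 0.997 for *Il18*, 0.69 for *Il1rn*, 0.37 for *Il1b* and 0.32 for *Il33*.

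**Figure D3:**
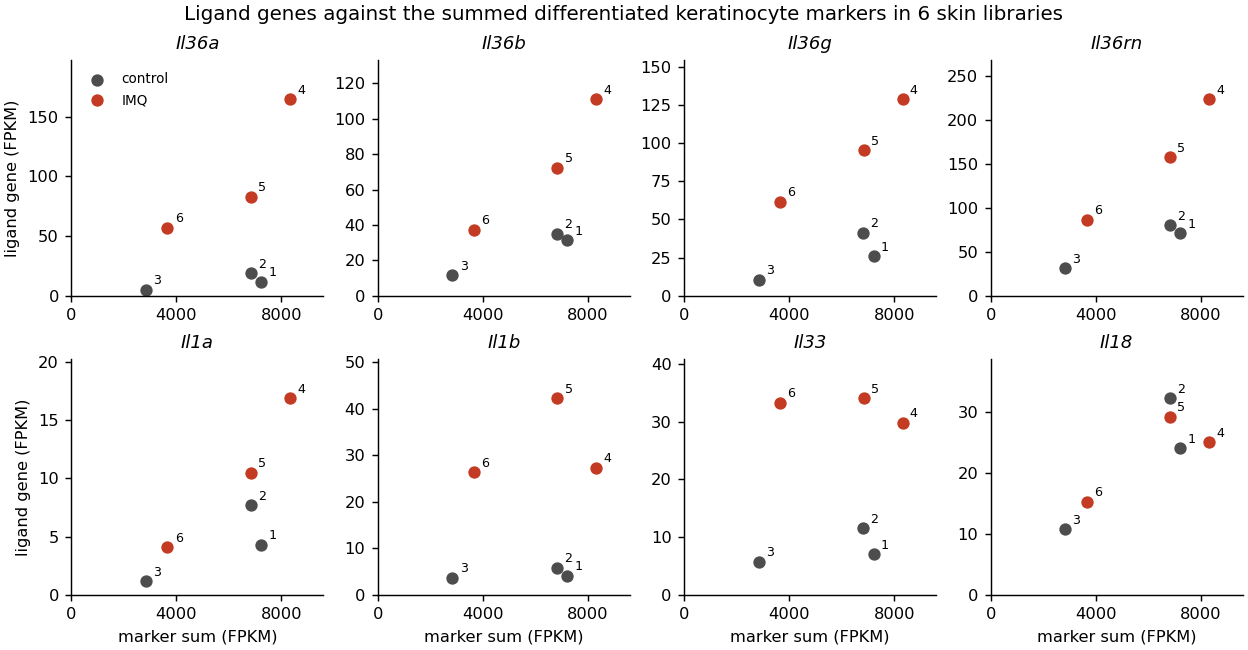
FPKM of 8 ligand genes against the summed FPKM of 5 differentiated keratinocyte markers in the 3 control (gray) and 3 IMQ (red) skin libraries, labeled with the library number. For the 4 Il36 genes the IMQ libraries lie above control libraries of a similar marker sum and the library with the lowest marker sum is the lowest of its group, for Il18 the groups lie together, and for Il33 the 3 IMQ points stay between 29.8 and 34.1 FPKM.

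Markers of infiltrating cells also moved with the treatment in skin. Of 7 neutrophil markers 4 were tested and all 4 rose, with a summed level of 3.77 to 5.73 FPKM in controls and 32.3 to 39.9 under IMQ, while *Ly6g*, *Camp* and *Ngp* were at 0 in at least 1 library. Of 7 macrophage and monocyte markers 3 rose (395 to 569.4 FPKM in controls, 826.2 to 1134 under IMQ). Of 4 keratins of stressed epidermis, *Krt6a*, *Krt6b* and *Krt16* rose (586.7 to 857 FPKM in controls, 2655 to 6216 under IMQ). Markers of basal keratinocytes (1 of 4), mast cells (3 of 6), endothelium (2 of 4) and B cells (1 of 2) were called higher as well, and those of fibroblasts (0 of 5, 0 by DESeq2, 0 at an unadjusted p under 0.05) and T cells (0 of 5, 3 by DESeq2, 3 at an unadjusted p under 0.05) were not. The part of these cells in the change of *Il1b* and of the other ligands was not tested.

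In small intestine, 5 of the 10 members had a count in every library and were tested together with 19965 genes, of which 2.95% were called, 2.77% as higher and 0.17% as lower. *Il1b* rose and was the 1 member called. It had 4.22, 3.12 and 2.52 FPKM in control mice and 17.1 and 38.9 FPKM in IMQ-treated mice, so that both IMQ libraries were above all controls and differed from each other as well. The fold change was 8.92 (log2 3.16 ± 0.38 SE, 95% interval 2.25 to 4.06, edgeR adjusted p = 0.00519), and the gene stayed called without any 1 of the 5 libraries, with log2 fold changes from 2.38 without IMQ 11 to 3.67 without IMQ 10.

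The other 4 tested members did not pass in small intestine. *Il18* had 28.4, 11.98 and 11 FPKM in controls and 28.3 and 38.6 FPKM under IMQ (log2 difference 1.02 ± 0.45, adjusted p = 0.426). Control 7 was level with IMQ 10 and below IMQ 11, and without it *Il18* was called (log2 1.67, adjusted p = 0.00706). *Il1rn* had 2.53, 1.79 and 1.502 FPKM in controls and 3.33 and 2.74 FPKM under IMQ (0.69 ± 0.26, adjusted p = 0.319). *Il33* had 9.27, 9.27 and 11.9 FPKM in controls and 7.85 and 6.39 FPKM under IMQ, which was below every control (-0.48 ± 0.18, adjusted p = 0.335). *Il1a* had 2.02, 1.14 and 1.12 FPKM in controls and 0.998 and 1.01 FPKM under IMQ (-0.47 ± 0.35, adjusted p = 0.695), and on normalized counts control 8 (125) and IMQ 11 (125.3) were level. Every IMQ library was above every control for *Il1b* and *Il1rn* of the 5 tested, beside 15.1% of all genes, and below every control for *Il33*, beside 13.9%.

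Of 7 macrophage and monocyte markers 3 rose in the intestine as well, with sums of 194.4 to 258.8 FPKM in controls and 424.7 to 446 under IMQ. Of 7 neutrophil markers 2 of the 4 tested rose (sums of 6.599 to 8.06 and 12.5 to 14.3 FPKM), and DESeq2 called 1. These were *Csf3r* (means of 175.6 and 1620 normalized counts) and *Mmp8*, which was near the floor (4.02 and 14.7). The other 2 tested, *Cxcr2* (log2 difference -0.25 ± 0.42, edgeR adjusted p = 0.893) and *Retnlg* (-0.07 ± 0.21, 0.943), did not pass. In the intestine 1 of 4 endothelial markers was called higher by edgeR. It called 0 of 6 mast cell, 0 of 5 fibroblast and 0 of 5 T cell markers. Of B cell markers 0 of 4 were called, and of intestinal epithelium markers 0 of 6. DESeq2 called 1 B cell marker as higher. At an unadjusted p under 0.05, 1 fibroblast and 1 T cell marker were lower, 1 B cell and 2 epithelium markers were higher, and mast cells had 0. The epithelium markers summed to 5973 to 10370 FPKM in controls and 12410 to 14180 under IMQ. T cell markers summed to 20.25 to 31.03 and 19.52 to 19.7 FPKM, respectively. The part of all these cells in the change of *Il1b* was not tested. Keratinocyte markers were near 0 in the intestine, with sums of at most 0.901 FPKM for the 5 genes of differentiated cells, beside *Il36a*, *Il36b* and *Il36rn* at 0 counts and *Il36g* at no more than 6.

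The change in intestine minus the change in skin was tested as an interaction term over 18108 genes, of which 2.55% were called, 1.7% with a higher and 0.856% with a lower value in intestine. *Il33* was the 1 of 5 tested members that was called. Its change in small intestine was lower than its change in skin by a log2 difference of -2.50 ± 0.40 SE (95% interval -3.39 to -1.61, edgeR adjusted p = 0.0103), and the call was lost when either intestinal IMQ library was left out (adjusted p = 0.0573 without IMQ 10 and 0.0619 without IMQ 11), with log2 differences of -2.58 and -2.43. For *Il1b* the difference between the tissues was 0.34 ± 0.52 (interval -0.82 to 1.49, adjusted p = 0.814), so that neither a larger nor a smaller rise in the intestine was detectable with these libraries. *Il1a* (-1.75 ± 0.998, adjusted p = 0.421), *Il1rn* (-0.26 ± 0.52, 0.865) and *Il18* (0.95 ± 0.73, 0.573) did not pass.

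The balance of agonist and antagonist transcripts was computed in each library from FPKM. The ratio of *Il1a* and *Il1b* together to *Il1rn* was 0.359, 0.372 and 0.379 in control skin and 0.902, 1.09 and 0.738 in IMQ-treated skin. The control values were within a narrow range, while *Il1a* ranged from 1.16 to 7.71 FPKM, *Il1rn* from 12.7 to 36.4 and *Il1b* from 3.65 to 5.84 between the same libraries. In small intestine the ratio was 2.47, 2.38 and 2.42 in control mice and 5.43 and 14.6 in IMQ-treated mice, so that agonist transcripts exceeded the antagonist already in controls. The ratio of the 3 IL-36 agonists to *Il36rn* in skin was 0.967, 1.18 and 0.867 in controls and 1.81, 1.59 and 1.80 under IMQ. In all 3 comparisons every IMQ library was above every control, with mean log2 differences of 1.28, 1.88 and 0.79, and the exact permutation test gave p = 0.1 for each (two-sided), which is the smallest p these numbers of libraries allow. The intestinal difference was 1.17 without IMQ 11 and 2.59 without IMQ 10. These are ratios of transcripts and not of proteins.

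**Figure D4:**
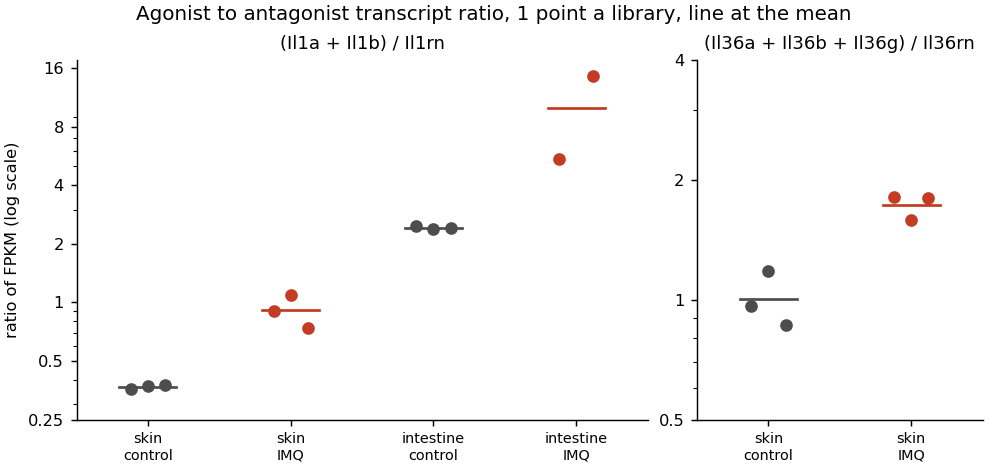
Ratio of agonist to antagonist FPKM in each library (log scale), with Il1a plus Il1b over Il1rn in skin and small intestine on the left and the 3 Il36 agonists over Il36rn in skin on the right. Gray points are control and red points IMQ libraries, lines are means, and every IMQ point lies above the control points of its tissue.

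Genes of the receptors, of ligand maturation, of receptor signaling and of the response were taken from 4 lists with 53 genes in all. The lists were chosen with earlier results of these data known, so that the counts below are a description. The part of the ligands in these changes was not tested. In skin 21 of the 46 tested rose and none fell by edgeR, beside 4.05% and 2.69% of all genes, and none was lower by DESeq2 or at an unadjusted p under 0.05. In small intestine 5 of 42 rose and 1 fell, beside 2.77% and 0.17%. At an unadjusted p under 0.05 in intestine, 2 maturation genes and 1 response gene were lower, and 1 maturation, 6 signaling and 4 response genes were higher. The count in skin was 7 without control 1 or without IMQ 5, 9 without IMQ 4, 12 without IMQ 6, 15 without control 3 and 28 without control 2. That in intestine was 2 without control 8, 3 without control 9 or IMQ 10, 1 without IMQ 11 and 6 without control 7.

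Of the 9 receptors and receptor-level inhibitors, 1 rose in skin. This was *Il1rap*, the accessory chain shared by the receptors of IL-1, IL-33 and IL-36, with 1852 ± 423 normalized counts in controls and 3940 ± 469 under IMQ (log2 fold change 1.09 ± 0.19, edgeR adjusted p = 0.0228). *Il1rl2*, the specific chain of the IL-36 receptor, had 6668 ± 1346 and 7553 ± 1288 normalized counts (0.18 ± 0.20, adjusted p = 0.637). *Il1r1*, the signaling receptor of IL-1, did not pass (0.53 ± 0.20, adjusted p = 0.178), nor did *Il1rl1*, the receptor of IL-33 (0.95 ± 0.31, adjusted p = 0.125). In small intestine 0 of 9 were called by edgeR, by DESeq2 or at an unadjusted p under 0.05, the largest difference being that of *Il18bp*, the soluble inhibitor of IL-18 (-0.29 ± 0.46, adjusted p = 0.889).

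Of 12 genes of ligand maturation, 7 rose in skin: *Casp1*, the IL-1β and IL-18 convertase (log2 0.86 ± 0.13, edgeR adjusted p = 0.0143), *Casp8*, the inflammasome adaptor *Pycard*, the sensors *Nlrp3* (1.36 ± 0.27, adjusted p = 0.0336) and *Aim2*, and the proteases *Ctss* (1.01 ± 0.22, adjusted p = 0.0419) and *Ctsg* (1.63 ± 0.27, adjusted p = 0.0199), which have been described to process IL-36 ligands. In small intestine *Ctss* rose (0.92 ± 0.13, adjusted p = 0.011) and *Casp4*, a caspase of the noncanonical inflammasome, fell (-0.78 ± 0.14, adjusted p = 0.0342). *Casp1* in small intestine was at 7846 ± 308 normalized counts in controls and 5412 ± 185 under IMQ (-0.54 ± 0.12), which did not pass (adjusted p = 0.0849).

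Of 13 genes of receptor signaling, 5 rose in skin: the adaptor *Myd88* (log2 0.94 ± 0.11, edgeR adjusted p = 0.00719), *Irak3*, *Irak4*, *Nfkb1* and *Nfkbiz*, the IκBζ gene (1.92 ± 0.34, adjusted p = 0.0236). *Myd88* (0.87 ± 0.11, adjusted p = 0.00607) and *Irak3*, a kinase-like protein that restrains the pathway (2.33 ± 0.18, adjusted p = 0.000666), rose in small intestine. *Irak3* went there from 200.6 ± 15.0 to 1006 ± 132.7 normalized counts. *Myd88* also serves Toll-like receptors, among them the receptor of IMQ.

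Of 19 response genes, 12 were tested in skin and 8 rose. The largest changes were those of the alarmins *S100a8* (log2 10.2 ± 0.48, edgeR adjusted p = 0.000539) and *S100a9* (9.46 ± 0.26, adjusted p = 7.6e-05), followed by the neutrophil attractant *Cxcl5* (7.01 ± 0.74), *Saa3* (6.59 ± 0.65), *Lcn2* (5.22 ± 0.38) and *Cxcl1* (4.13 ± 0.26), with *Il23a* (2.49 ± 0.53) and *Il6* (2.41 ± 0.40) after them. *Il17a*, *Il17f*, *Il22* and *Csf3* were at 0 in all 3 control skin libraries and had means of 139.4, 276.9, 16.4 and 64.7 normalized counts under IMQ, so that they had no test under the filter. In small intestine 2 of 10 rose, *Cxcl1* (1.91 ± 0.37, adjusted p = 0.0437, with means of 9.93 and 37.8 normalized counts) and *Saa3* (5.02 ± 0.87, adjusted p = 0.0275). *Nos2* was at 2139 ± 1369 normalized counts in intestinal controls and 492.7 ± 105.6 under IMQ (-2.12 ± 0.66), which did not pass (edgeR adjusted p = 0.204). *Saa3* there had a mean of 599.6 normalized counts under IMQ with an SD of 618.2, so that its level differed strongly between the 2 libraries.

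**Figure D5:**
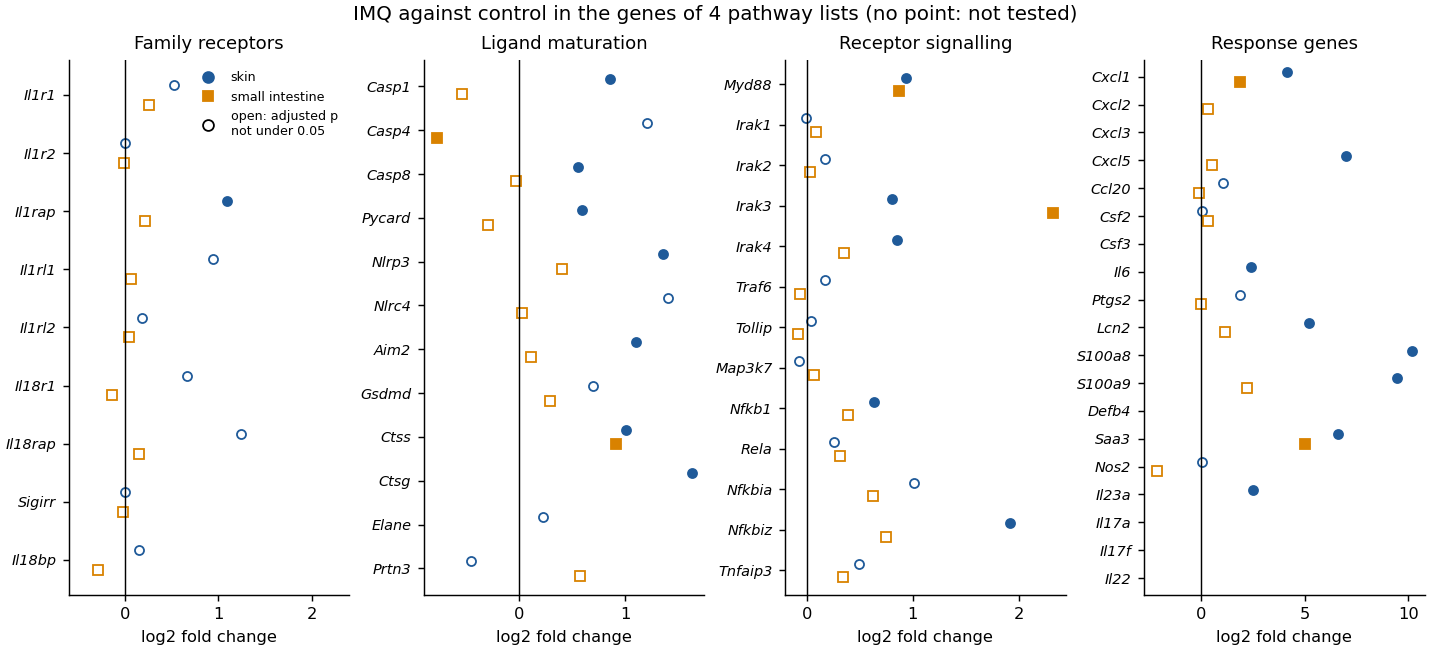
Log2 fold change, IMQ against control, of receptor, maturation, signaling and response genes in skin (blue circles) and small intestine (orange squares), filled where the adjusted p was under 0.05. The horizontal scale differs between the panels, and in skin 21 genes are filled, all to the right of 0.

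Among 16321 other genes with a mean of at least 50 normalized counts, the ones whose pattern over the 11 libraries was most like each member were found by Pearson's r of log2(normalized count + 1). The libraries share tissue and treatment, so r is given as a description. For *Il1b* these were *Myd88* (r = 0.9763) and the monocyte gene *Ms4a6c* (0.9621). For *Il33* they were *Zc3h12a*, which encodes an RNase that degrades inflammatory transcripts (0.9435), and *Amd-ps4* (0.935), whose name marks a pseudogene that may share reads with other loci, and for *Il1rn* *Bicd2* (0.993) and *Pak6* (0.9913). For the IL-36 genes, at or near 0 in the 5 intestinal libraries, they were *Serpinb11* (0.9993) and *Defb14* (0.9984) for *Il36a*, *Cnfn* (0.9998) and *Slc26a9* (0.9997) for *Il36b*, *Lipn* (0.9962) and *Gm6551* (0.9958) for *Il36g*, and *Aox4* (0.9997) and *Klk11* (0.9996) for *Il36rn*. *Il1a* was most like *Atp2c2* (0.9583) and *Pde12* (0.9567), and *Il18*, with the weakest likeness of the 9, *Rabggta* (0.8919) and *Exd1* (0.878). *Il1f10* was below the count minimum.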

How the data were processed

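The labels gave the tissue and treatment of all 11 libraries. After trimming, the authors mapped reads to mm10 with HISAT2 2.1.0, assembled and quantified transcripts with StringTie 2.1.3b, and deposited 1 table with whole-number read counts for each gene. The deposited table also holds FPKM, which the authors scaled by transcript length and library size, and TPM, which the authors scaled to a fixed total for each library. How the counting treated strand and multiply mapped reads is not given in the sources used here.

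Counts were tested in R 4.3.3 with the quasi-likelihood test of edgeR 4.0.16 after relative log expression normalization, within each tissue, leaving out every gene with 0 counts in any library, as the study did. P-values were adjusted by the Benjamini-Hochberg method over all genes tested, with a threshold of 0.05. The interaction and the comparison of control tissues came from 1 fit of all 11 libraries. Normalized counts are counts divided by these size factors, and FPKM was used to compare genes. Agonist to antagonist ratios were compared by an exact permutation test on log2 ratios. Alternatives were TMM, DESeq2 1.42.0, other filters, limma 3.58.1 on log2(FPKM + 1) and log2(FPKM + 0.01), TPM for the ratios, and leaving out each library. The study's own test was the Wald test of DESeq2, used together with fold change. Here DESeq2 was run without a fold threshold.

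All 10 members, and from the pathway lists the genes called in either tissue (or the one with the largest change) together with those a sentence needed, are named. Those outside the rule, among them *Il1rl2*, *Il1r1*, *Il1rl1*, *Casp1* in intestine, the untested cytokines and the keratins, were chosen after their values were seen. The members and lists were chosen with earlier results of these data known. Library pairs of 1 group differed by more than sampling noise (chi-square over degrees of freedom 27.8 to 186), and no pair was identical. Biological coefficients of variation were 0.245 (skin) and 0.215 (small intestine). The median log2 fold change of all genes was -0.014 and -0.022. The tests were first run on simulated counts. Promoter windows and positions are from RefSeq for GRCm38.p6, in which 9 of the 10 members had a window.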

Additional observations from a re-analysis of the deposited data

Results flagged for a closer look

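*Il36a*, *Il36b*, *Il36g*, *Il36rn* and *Il1f10* had no interaction test, because the filter on counts left them out in small intestine. Among the members tested, *Il33* was the 1 called as different between the tissues in its response to IMQ, beside 2.55% of all genes tested. In skin, all 3 IMQ libraries of *Il33* were above every control, beside 15.1% of all genes tested there. In small intestine, both IMQ libraries of *Il33* were below every control, beside 13.9%. The change of *Il33* in small intestine minus its change in skin was -2.50 on the log2 scale (edgeR interaction, adjusted p = 0.0103). The difference was between -2.58 and -2.43 when either intestinal IMQ library was left out, with adjusted p-values of 0.0573 and 0.0619. Groups of 2 or 3 libraries are too small for a test of single libraries that stand apart.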

How the results depend on the processing

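No paired analysis was possible because the groups share no replicate numbers. The number of members called in skin, 3, became 6 with DESeq2 and 6 with the keratinocyte marker covariate, which was chosen after seeing the data, and ranged from 1 to 5 when 1 library was left out. In small intestine it was 1, and 1 to 2 with a library left out. For the interaction it was 1, and 0 to 1. For control skin against control intestine it was 2, and 7 with filterByExpr (which admits the members at 0 counts in intestine), 1 with limma on log2(FPKM + 1), and 1 to 2 with a library left out. List calls were 7 to 28 in skin and 1 to 6 in intestine with a library left out. The sign of small differences turned. With a library left out, *Il18* in skin ranged from -0.27 to 0.51 (negative without control 3, IMQ 4 at -0.0036 and IMQ 5 at -0.11), and it was -0.020 with the covariate. Between control tissues, *Il18* was 0.36 with limma and ranged from -0.51 to 0.59 (0.30 without skin control 3, 0.59 without intestinal control 7), and *Il1b* from -0.23 to 0.29 (-0.034 and -0.091 without intestinal controls 8 and 9). In the interaction, *Il1rn* ranged from -0.76 to 0.083 and *Il1b* from -0.47 (without intestinal IMQ 11) to 0.85. The cause of these shifts was not tested. Over all genes, the calls in skin were 1382, and 3030 with DESeq2, 894 with limma on log2(FPKM + 1) and 258 to 2521 with a library left out. In small intestine they were 588, and 1206 with DESeq2 and 294 to 801. For the interaction they were 462, and 1281 with DESeq2 and 144 to 1072. With 2 IMQ libraries of intestine, leaving out 1 leaves a lone library that is assumed to vary like the other groups. *Il36g* in intestine rested on 8 counts in all and could not be compared at this depth.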
